A study of Homo sapiens with 6 samples.

Results

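The transcripts described here encode regulators of messenger RNA decay and translation from the ZFP36, BTG/TOB and CPEB families, measured in K562 cells after 3 h with cortistatin A (CA). From 10 genes, ZFP36, ZFP36L1, ZFP36L2, BTG1, BTG2, TOB1, TOB2, CPEB2, CPEB3 and CPEB4, every probe set was taken that the platform annotation gives as its single symbol. That rule gave 28 of 54613 probe sets other than controls, for 9 of 19775 genes with such a probe set; the RNA level of BTG2, a BTG/TOB family member, is not analysed here. The genes were chosen by family with the log2 changes of this same comparison known, in which ZFP36, BTG1 and CPEB4 had stood out, so their values are given as a description and their p-values support nothing further.

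K562 is an established cell line from a chronic myelogenous leukaemia with erythroid features. Wells received either 25 nM CA, an inhibitor of the Mediator-associated kinases CDK8 and CDK19, or the DMSO vehicle, and each group was plated in triplicate. Total RNA was labelled with a 3' IVT kit and hybridised to Affymetrix U133 Plus 2.0 arrays, 3 with CA and 3 with DMSO. The values are log2 signals after RMA, a procedure that brings arrays to a common intensity distribution, and they measure RNA level, not decay rate. With bulk RNA from a culture, a change in the share of some cells and a change in RNA per cell cannot be told apart.

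ZFP36 proteins bind AU-rich elements in the 3' end of short-lived transcripts and recruit the CCR4-NOT complex, which removes the poly(A) tail. BTG and TOB proteins contact the CNOT7 and CNOT8 subunits of that complex and stimulate deadenylation. CPEB proteins bind U-rich cytoplasmic polyadenylation elements and either lengthen or shorten the tail of their targets. In blood, mouse Zfp36l2 is known for the self-renewal of early erythroid progenitors and mouse Cpeb4 for translational repression in late erythroblasts. ZFP36 and BTG2 are also known as immediate early genes, induced within minutes by growth factors.

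The regions upstream of 4 of these genes are shown because their probe sets lay apart between the groups: CPEB4 and BTG1 higher with CA, ZFP36 and TOB1 lower. Each is the 250 bases before a start in the RefSeq table, read 5′ to 3′ on the strand of the gene in GRCh38.p14. Capitals mark the inverted CCAAT box (ATTGG) in CPEB4 and BTG1, the TATAAA box in BTG1 and the CCAAT box before the inner of the 2 TOB1 starts; the windows of ZFP36 and of the outer TOB1 start held no match. The CPEB4 region is chr5:173888099-173888348 on the plus strand and that of BTG1 is chr12:92145847-92146096 on the minus strand. The ZFP36 region is chr19:39406597-39406846 on the plus strand and those of TOB1 are chr17:50867979-50868228 (outer) and chr17:50866355-50866604 (inner) on the minus strand.
CPEB4: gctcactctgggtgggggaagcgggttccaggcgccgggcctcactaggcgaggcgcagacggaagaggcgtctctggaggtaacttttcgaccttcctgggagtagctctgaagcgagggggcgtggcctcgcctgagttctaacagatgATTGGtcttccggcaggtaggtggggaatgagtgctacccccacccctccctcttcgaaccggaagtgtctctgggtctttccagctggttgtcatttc
BTG1: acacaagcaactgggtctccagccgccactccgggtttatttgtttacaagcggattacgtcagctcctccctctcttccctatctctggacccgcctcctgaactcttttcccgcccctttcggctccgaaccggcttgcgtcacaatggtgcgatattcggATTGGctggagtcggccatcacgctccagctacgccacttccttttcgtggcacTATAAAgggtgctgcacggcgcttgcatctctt
ZFP36: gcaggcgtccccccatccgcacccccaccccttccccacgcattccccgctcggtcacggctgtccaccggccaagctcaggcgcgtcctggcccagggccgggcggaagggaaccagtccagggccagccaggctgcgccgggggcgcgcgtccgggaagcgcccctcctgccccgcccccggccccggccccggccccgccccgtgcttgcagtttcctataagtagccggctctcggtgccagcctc
TOB1 outer: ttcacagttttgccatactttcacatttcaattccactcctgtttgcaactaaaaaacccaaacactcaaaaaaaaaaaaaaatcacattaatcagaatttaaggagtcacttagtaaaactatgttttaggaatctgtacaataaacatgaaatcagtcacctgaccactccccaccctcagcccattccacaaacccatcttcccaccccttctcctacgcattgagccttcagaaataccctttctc
TOB1 inner: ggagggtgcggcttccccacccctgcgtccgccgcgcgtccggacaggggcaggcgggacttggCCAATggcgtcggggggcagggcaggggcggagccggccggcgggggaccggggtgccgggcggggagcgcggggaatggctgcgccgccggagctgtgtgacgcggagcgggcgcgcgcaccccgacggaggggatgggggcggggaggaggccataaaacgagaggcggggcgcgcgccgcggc

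The table holds 12 windows for 9 of the 10 genes, as ZFP36L1, TOB1 and CPEB3 have 2 starts each. Searched on both strands, CCAAT was found in 6 of the 12, 1 each of ZFP36L1, BTG1, BTG2, TOB1, CPEB3 and CPEB4, and in 32.0% of 35116 windows of this length. TATAAA was found in BTG1 alone, against 10.7% of all windows. The cyclic AMP element TGACGTCA was found in 1 ZFP36L1 window alone, against 1.65% of all windows. No member window held the CArG box of serum response factor (1.16% of all windows), the AP-1 motif TGACTCA (4.2%), the EGR1 motif GCGTGGGCG (0.72%), the STAT motif TTCNNNGAA (6.57%) or the E-box CACGTG (6.34%). None of the searched motifs overlapped another in these windows. A match here is only a match of letters, and a missing one says nothing of binding elsewhere.

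Across the 6 arrays, pairwise correlations were 0.997 and the median signals lay between 3.47 and 3.52. Only the brighter part of the table was tested, 27307 probe sets with a mean of at least 3.49, which is the median of all such means; 17 of them belonged to the members and every one of the 9 genes was represented. In a principal component analysis CA array 1 scored 19.0 on component 2 (24.4% of variance), whereas the remaining arrays scored -7.2 to -0.3, and values without that array are therefore given below. Of 9 erythroid marker genes, 6 had a probe set, and their brightest probe sets averaged 8.43 to 13.27 with CA and 8.38 to 13.27 with DMSO. On these probe sets TAL1, an erythroid transcription factor, lay higher with CA by 0.22 and TFRC, the transferrin receptor, by 0.12, without overlap (limma adjusted p = 0.232 and 0.442, or 0.00339 and 0.0163 with a prior variance that follows the signal), and the other 4 overlapped. Their part in the members' values was not tested. Of 6 lymphoid and myeloid markers, 5 had a probe set, at 2.57 to 3.77 with CA and 2.51 to 3.66 with DMSO, around or below the signal filter.

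CPEB4 was the member with the largest change: 1 of its probe sets rose 1.51-fold with CA and its 2 other tested probe sets lay higher as well. BTG1 lay higher by 1.17- to 1.23-fold, and ZFP36, TOB1 and CPEB2 lay lower by 1.17- to 1.29-fold on probe sets whose arrays did not overlap between groups. ZFP36L1, ZFP36L2, TOB2 and CPEB3 had fitted changes within 0.1 of 0 on the log2 scale on every tested probe set. In limma with Benjamini-Hochberg adjustment over all 27307 probe sets, 1 of the 17 tested member probe sets was called at an adjusted p under 0.05, upward, where 0.0513% of all probe sets were called upward, 0.0439% downward and 0.0952% in either direction.

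**Figure D1:**
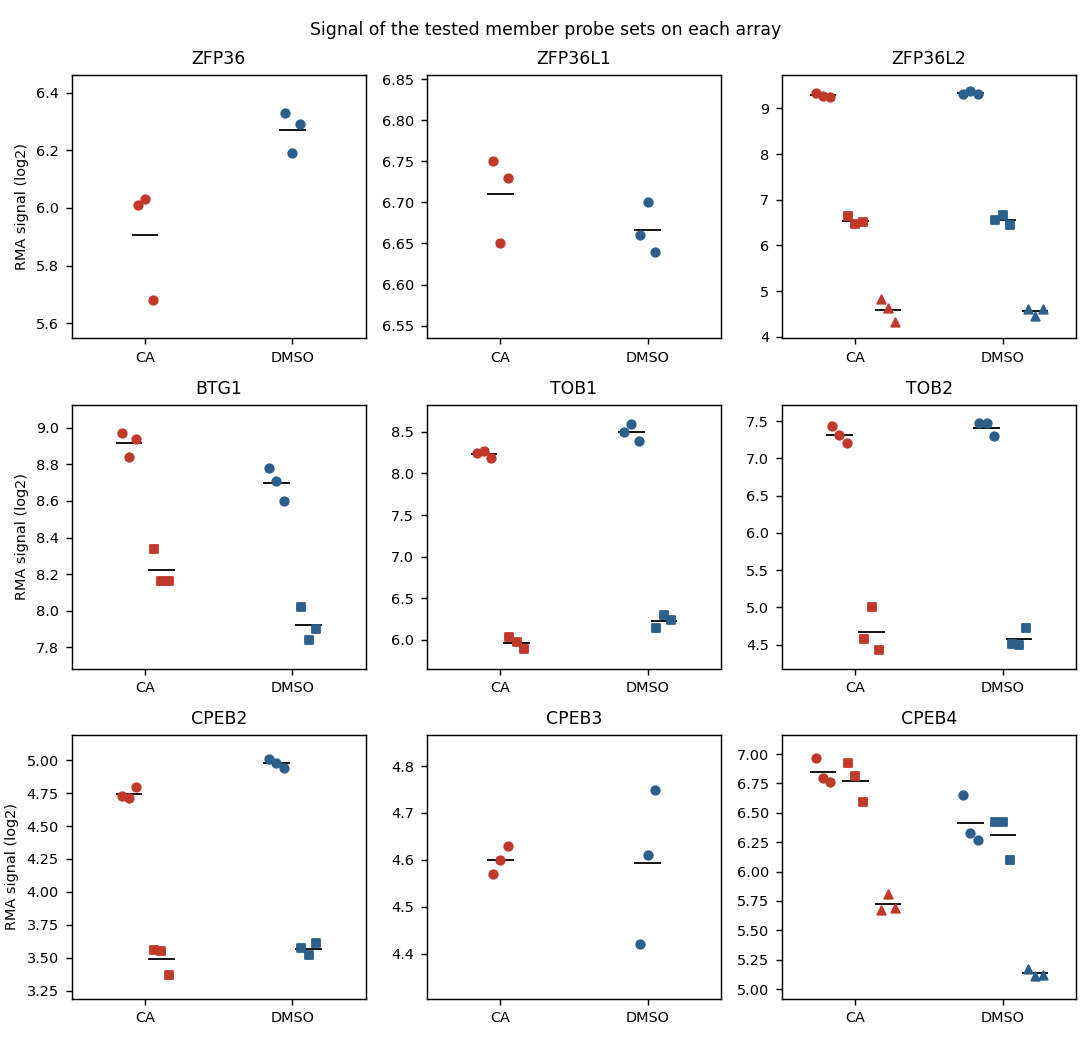
RMA log2 signal (vertical axis, scale differs between panels) of the 17 tested member probe sets on each array, CA in red and DMSO in blue. Circles, squares and triangles are the brightest, the next and the dimmest tested probe set of a gene, and bars are group means (n = 3); the CPEB4 arrays with CA lie above those with DMSO for all 3 probe sets, and the ZFP36 and TOB1 arrays with CA lie below.

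ZFP36, also called tristetraprolin, is the founding AU-rich element binding protein of its family and has 1 probe set, 201531_at. Its log2 signal was 6.01, 6.03 and 5.68 on the CA arrays and 6.33, 6.19 and 6.29 on the DMSO arrays. All 3 CA arrays lay below all 3 DMSO arrays, and CA array 3 was the lowest. The means were 5.90 ± 0.20 with CA and 6.27 ± 0.07 with DMSO (SD, n = 3 each), a log2 change of -0.37 (95% confidence interval -0.61 to -0.12), or 1.29-fold lower. The probe set did not pass over all probe sets (limma adjusted p = 0.35, rank 731 of 27307 by p). Without CA array 3 the change was -0.25, and without CA array 1 it was -0.42. With 1 probe set, no second measurement of ZFP36 on these arrays bears on the value.

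The ZFP36 paralogues had smaller fitted changes. ZFP36L1, which binds the same elements and is broadly expressed, had 6.75, 6.65 and 6.73 with CA and 6.66, 6.70 and 6.64 with DMSO on its tested probe set 211962_s_at. The groups overlapped, with a change of 0.04 (-0.07 to 0.16, limma adjusted p = 0.828). The ID of this probe set carries the suffix of those shared between transcripts. The other ZFP36L1 probe sets averaged 2.66, 2.46 and 2.43, below the signal filter, so the level of ZFP36L1 rests on 211962_s_at alone. ZFP36L2 had 3 tested probe sets. The brightest, 201368_at, read 9.35, 9.27 and 9.25 with CA and 9.32, 9.39 and 9.32 with DMSO, a change of -0.05 (-0.17 to 0.06, limma adjusted p = 0.792). The other ZFP36L2 probe sets had -0.01 and 0.03, and the groups overlapped on all of them.

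BTG1, an antiproliferative protein that binds the CNOT7 deadenylase, had 2 tested probe sets and both lay higher with CA. On 200920_s_at the signals were 8.34, 8.16 and 8.16 with CA and 8.02, 7.84 and 7.90 with DMSO. On 200921_s_at they were 8.97, 8.84 and 8.94 with CA and 8.78, 8.71 and 8.60 with DMSO. No CA array overlapped a DMSO array on either probe set. The changes were 0.30 (0.12 to 0.48, limma adjusted p = 0.319) and 0.22 (0.07 to 0.37, limma adjusted p = 0.364). Without CA array 1 they were 0.24 and 0.19. Both IDs carry the suffix of probe sets shared between transcripts.

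TOB1, which bridges poly(A)-binding protein and CNOT7, lay lower on both of its probe sets by almost the same amount. On 202704_at the signals were 8.25, 8.27 and 8.19 with CA and 8.50, 8.59 and 8.39 with DMSO. On 228834_at they were 6.04, 5.97 and 5.89 with CA and 6.14, 6.30 and 6.24 with DMSO. The CA arrays lay below the DMSO arrays in both cases. The changes were -0.25 (-0.40 to -0.11, limma adjusted p = 0.319) and -0.26 (-0.41 to -0.11, limma adjusted p = 0.308), and without CA array 1 they were -0.26 and -0.30. BTG1 and TOB1, members of 1 family with the same deadenylase partner, thus lay on opposite sides.

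TOB2, the close paralogue of TOB1, had 2 tested probe sets that pointed in opposite directions. On 222243_s_at the means were 7.32 ± 0.11 with CA and 7.41 ± 0.10 with DMSO (SD, n = 3 each), a change of -0.09 (-0.27 to 0.09, limma adjusted p = 0.77). On the dimmer 221496_s_at they were 4.67 ± 0.29 with CA and 4.58 ± 0.12 with DMSO (SD, n = 3 each), a change of 0.09 (-0.27 to 0.44, limma adjusted p = 0.901). The groups overlapped on both.

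CPEB4 gave the same direction on 3 tested probe sets. On 224828_at the signals were 5.67, 5.81 and 5.69 with CA and 5.17, 5.11 and 5.12 with DMSO. On 224831_at they were 6.92, 6.81 and 6.59 with CA and 6.42, 6.42 and 6.10 with DMSO. On 224829_at they were 6.97, 6.80 and 6.76 with CA and 6.65, 6.33 and 6.27 with DMSO. Every CA array lay above every DMSO array on each of the 3.

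CPEB4 224828_at rose by 0.59 (95% confidence interval 0.47 to 0.72, limma adjusted p = 0.0292), rank 14 of all tested probe sets by p. The other 2 probe sets had changes of 0.46 (0.17 to 0.75, limma adjusted p = 0.339) and 0.43 (0.16 to 0.69, limma adjusted p = 0.341). Their standard errors were 0.12 and 0.11, against 0.05 for 224828_at, which was also the dimmest of the 3. Without each of the 6 arrays in turn 224828_at kept changes of 0.55 to 0.62, but its limma adjusted p was 0.0916 to 0.247 and the call was lost each time; without CA array 1 it had 0.62 and 0.0916. The call was also lost with no signal filter (limma adjusted p = 0.115), without shared probe sets (0.0518) and with the replicate number as a block (0.36). With a prior variance that follows the signal, all 3 CPEB4 probe sets were called, at 0.00137, 0.0402 and 0.0445.

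CPEB2, which with CPEB3 and CPEB4 forms the subfamily apart from CPEB1, lay lower on its brighter probe set. On 226939_at the signals were 4.73, 4.71 and 4.80 with CA and 5.01, 4.98 and 4.94 with DMSO, with no overlap. The change was -0.23 (-0.34 to -0.12, limma adjusted p = 0.24), and without CA array 1 it was -0.22. On 235479_at, at the edge of the signal filter with a mean of 3.53, the change was -0.07 (-0.23 to 0.08, limma adjusted p = 0.783) and the groups overlapped.

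CPEB3, known for translational repression at synapses in mouse, had 1 tested probe set, 243651_at. It read 4.57, 4.60 and 4.63 with CA and 4.42, 4.61 and 4.75 with DMSO. The change was 0.00 (-0.20 to 0.21, limma adjusted p = 0.996), and the CA arrays all lay within the range of the DMSO arrays.

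**Figure D2:**
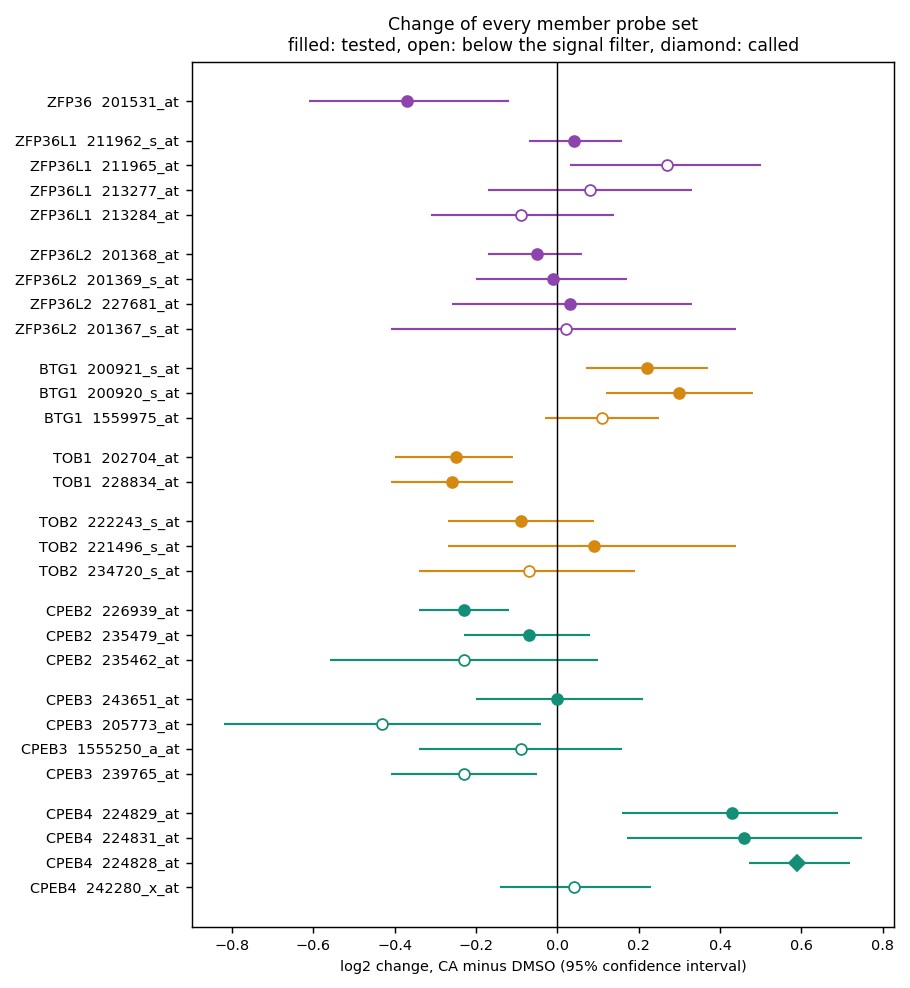
Log2 change, CA minus DMSO, of all 28 member probe sets with 95% confidence intervals from limma; filled symbols passed the signal filter, open symbols did not, and the diamond is the called CPEB4 probe set. The 3 tested CPEB4 probe sets lie at 0.43 to 0.59, BTG1 at 0.22 and 0.30, TOB1 at -0.25 and -0.26, and ZFP36 at -0.37.

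The 11 member probe sets below the filter averaged 1.64 to 3.24 over the arrays and got no call. Their fitted changes come from a fit without the filter. On 3 of them the groups did not overlap, where 9.42% of the 27306 probe sets below the filter did not, 5.20% above and 4.22% below: ZFP36L1 211965_at lay higher with CA by 0.27, BTG1 1559975_at by 0.11, while CPEB3 239765_at lay lower, with a change of -0.23. CPEB3 205773_at had the largest fitted value of the 11, -0.43 (-0.82 to -0.04), with groups that overlapped. The dimmest, CPEB4 242280_x_at, read 1.67 ± 0.13 with CA and 1.62 ± 0.03 with DMSO (SD, n = 3 each), a change of 0.04, far from the values of the other CPEB4 probe sets.

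Agreement between probe sets was read from the 6 members with 2 or more tested probe sets, which make 10 pairs. In 7 pairs both changes had the same sign, where 56.5% of 17062 such pairs did so over all genes. As the members were chosen with these changes known, and pairs of 1 gene are not independent, nothing is read from that difference. The pairs of opposite sign were 2 of ZFP36L2 and the 1 of TOB2, all with changes within 0.1 of 0. When 1 probe set of a pair was subtracted from the other within each array, the CA and DMSO arrays overlapped in all 10 pairs. With 3 arrays per group only 10% of comparisons would not overlap by chance, so overlap is the usual outcome and does not show agreement. The share over all genes was not computed. For CPEB4 the difference between 224829_at and 224828_at was 1.12 ± 0.16 with CA and 1.28 ± 0.18 with DMSO, and between the TOB1 probe sets it was 2.28 ± 0.05 with CA and 2.27 ± 0.11 with DMSO (SD, n = 3 each). The difference between the CPEB2 probe sets was 1.26 ± 0.15 with CA and 1.41 ± 0.07 with DMSO. Probe sets of a gene share the RNA of the same wells and are not replicates.

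**Figure D3:**
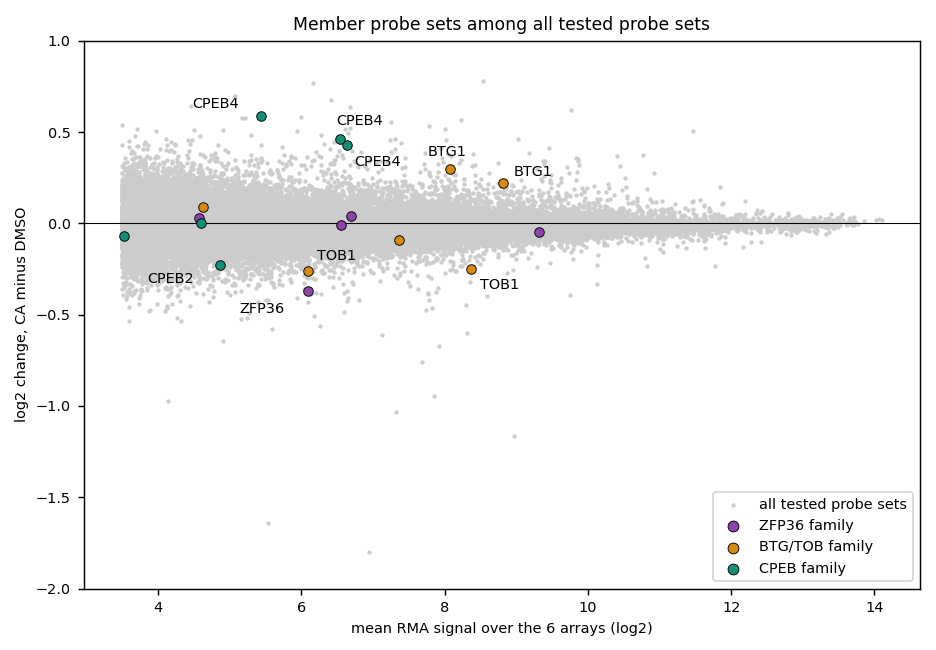
Log2 change, CA minus DMSO, against mean log2 signal for all 27307 tested probe sets (grey) and the 17 of the members (coloured by family); names mark members whose groups did not overlap. CPEB4 224828_at at 0.59 lies near the upper edge of the cloud at its signal, and most others lie inside it.

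By counts, 9 of the 17 tested member probe sets had groups that did not overlap, 5 with CA above and 4 with CA below, where over all probe sets 15.6% did not overlap, 7.09% above and 8.52% below. The same 9 had an unadjusted p under 0.05 in limma, where 9.31% of all probe sets did, 4.55% higher and 4.76% lower with CA. The median absolute change was 0.22 for the members and 0.06 for all tested probe sets. These counts describe genes that were picked with this comparison in view, and nothing is read from them. With the prior variance that follows the signal, 6 member probe sets were called, the 3 of CPEB4, both of BTG1 (limma adjusted p = 0.0252 and 0.0483) and TOB1 202704_at (0.0256), where 1.04% of all probe sets were called, 0.659% upward and 0.385% downward. ZFP36 was not called there either (limma adjusted p = 0.0864).

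RMA values do not show a change shared by most transcripts. The exogenous polyadenylated control RNAs were lower at their 3' probe sets on the CA arrays, 8.13 to 8.24, than on the DMSO arrays, 8.28 to 8.43. Centring on them moved the median change of all probe sets to 0.20, from -0.01 as deposited. On that scale CPEB4 had 0.64 to 0.80 and BTG1 0.43 and 0.51, while ZFP36 had -0.16, both TOB1 probe sets -0.05 and CPEB2 226939_at -0.02. The direction of these 9 probe sets was the same on every scale tried, though on this one TOB1 and CPEB2 lay within 0.05 of 0. The other 8 tested probe sets, within 0.1 of 0 as deposited, had 0.12 to 0.30 on it, around the shift of all probe sets. Centring on the 5' control probe sets moved the median to 0.03. The labels do not say how the controls were added.

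**Figure D4:**
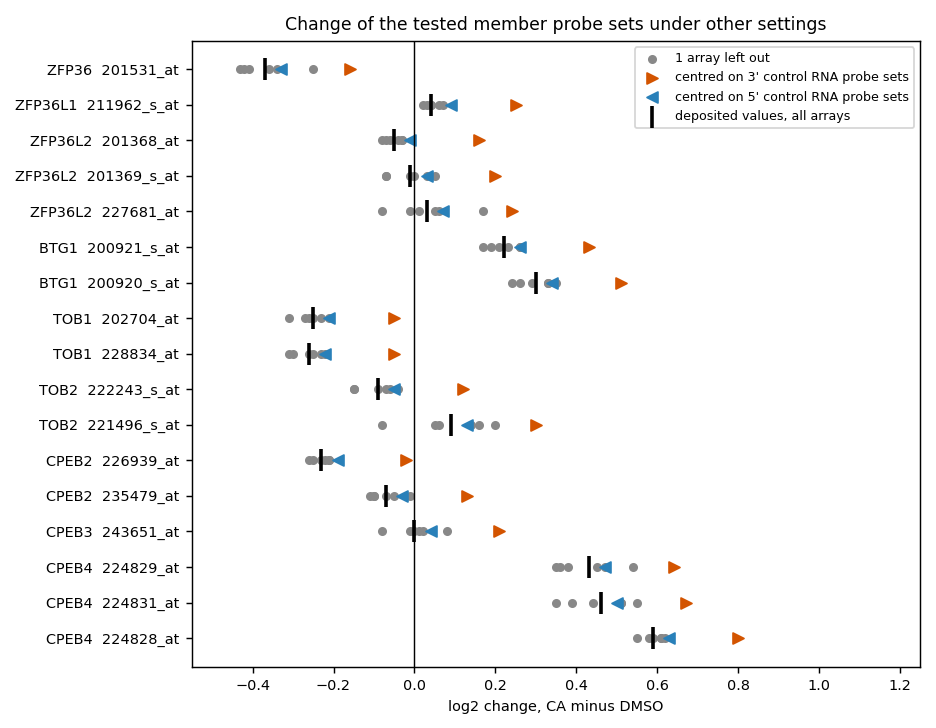
Log2 change, CA minus DMSO, of the 17 tested member probe sets as deposited (black bars), with 1 array left out (grey) and after centring on 3' (orange) or 5' (blue) control RNA probe sets. CPEB4 and BTG1 stay right of 0 and ZFP36, TOB1 and CPEB2 226939_at stay left of it, with TOB1 at -0.05 on the 3' scale.

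The decay machinery and its regulators showed no called gene. Over 7 lists of deadenylation, decapping, exosome, RNA-binding and polyadenylation genes and of kinases and partners of ZFP36, 86 of 91 genes were measured and 0 were called by limma, 0 also with the signal-dependent variance, where 0.0859% and 1.23% of all measured genes were called. At an unadjusted p under 0.05 there were 8, 2 higher and 6 lower with CA, which is 9.3% of the 86 against 8.61% of all 12810 measured genes (3.59% higher and 5.02% lower). On the brightest tested probe set of each gene the changes lay between -0.20 and 0.19 with a median of -0.02, against -0.01 for all genes. The CCR4-NOT complex had all 11 listed subunits measured, with changes of -0.13 to 0.05 and a median of -0.05.

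Within these lists the genes with the smallest p were as follows. CNOT4, the ubiquitin ligase subunit of CCR4-NOT, had a change of -0.13 (SE 0.04, limma adjusted p = 0.42), and CNOT10 had -0.06. Of other deadenylases, PARN had -0.11 (SE 0.05, limma adjusted p = 0.609), and the poly(A)-binding protein gene PABPC1 had 0.03. DCP1B, a decapping activator, had -0.20 (SE 0.05, limma adjusted p = 0.35), with 6.02, 5.91 and 5.86 on the CA arrays and 6.15, 6.10 and 6.13 on the DMSO arrays. EIF4ENIF1, the eIF4E transporter, had -0.13.

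EXOSC6, a ring subunit of the RNA exosome, had -0.18 on its brightest tested probe set (SE 0.06, limma adjusted p = 0.406). Dimmer EXOSC6 probe sets, with means of 7.08 and 6.42, had -0.086 and 0.249, so the direction differed between probe sets of this gene. HBS1L, a ribosome rescue factor, had 0.10. RC3H1, or roquin, which binds stem-loops in cytokine transcripts and recruits CCR4-NOT, had -0.18 (SE 0.05, limma adjusted p = 0.343). ZC3H12C, an RNase of the regnase family, had 0.12 (SE 0.04, limma adjusted p = 0.466). The poly(A) polymerase gene PAPOLG had -0.16 (SE 0.04, limma adjusted p = 0.343) and TENT4B -0.14 (SE 0.06, limma adjusted p = 0.539). MAPKAPK2, the kinase that phosphorylates ZFP36 and weakens its hold on deadenylases, had -0.10 (SE 0.04, limma adjusted p = 0.539), and MAPKAPK3 had 0.03. None of these genes passed the test on its brightest tested probe set.

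Family genes outside the members did not pass. BTG3, a BTG/TOB protein, had -0.01 on its brightest probe set (limma adjusted p = 0.978). CPEB1, the founding CPEB protein, had -0.04 on its brightest probe set (limma adjusted p = 0.833) and -0.21 on the dimmer 222903_s_at (limma adjusted p = 0.53).

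Transcripts known for AU-rich elements, the class that ZFP36 proteins bind, went both ways. The list was written with earlier results for MYC, TNFAIP3, IL6 and PIM1 known, so it is no independent evidence. Of 29 listed genes 18 were measured, and 2 were called upward and 0 downward, where 0.0625% and 0.0234% of all measured genes were. MYC, the growth regulator, had 11.71, 11.70 and 11.75 with CA and 11.21, 11.22 and 11.22 with DMSO, and rose by 0.50 (0.41 to 0.60, limma adjusted p = 0.0235). TNFAIP3, an inhibitor of NF-kappaB signalling, had 6.83, 6.89 and 6.87 with CA and 6.32, 6.38 and 6.34 with DMSO, and rose by 0.51 (0.41 to 0.62, limma adjusted p = 0.0235). The groups did not overlap for either gene. Both probe sets carry the shared suffix, and both calls were lost with any 1 array left out (limma adjusted p = 0.0916 to 0.204), with no signal filter (0.115 and 0.121) and with the replicate block (0.352 and 0.348).

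Of the 18, 8 had an unadjusted p under 0.05, 4 higher and 4 lower, which is 44.4% against 8.61% of all measured genes (3.59% higher and 5.02% lower). The median change was -0.02. As the list was written with some of these values known, nothing is read from that share. The 6 that were not called are named after their values were seen. IL6, a cytokine, had 0.51 (SE 0.06, limma adjusted p = 0.0723) and PIM1, a survival kinase, 0.46 (SE 0.06, limma adjusted p = 0.114). On the other side PLK3 had -0.29, FOS -0.28, IER3 -0.15 and CCND1 -0.13, with limma adjusted p between 0.261 and 0.527. FOS averaged 3.40 with CA and 3.69 with DMSO, around the signal filter, and its groups overlapped. IL6 was dim too, at 4.76 with CA and 4.25 with DMSO, as was PLK3, at 4.35 with CA and 4.64 with DMSO. TNF, CSF2, PTGS2 and 8 others of the 29 were below the filter or had no single-symbol probe set.

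**Figure D5:**
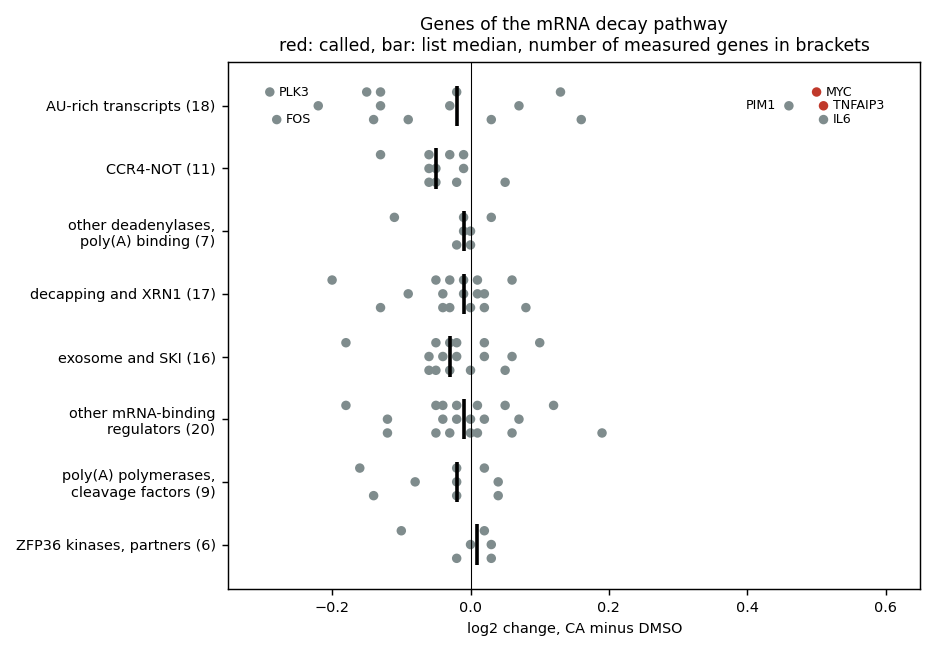
Log2 change, CA minus DMSO, of each measured gene on its brightest tested probe set, by list, with list medians as bars and called genes in red; vertical position within a list has no meaning. The machinery and regulator lists lie between -0.20 and 0.19, while the AU-rich transcripts run from -0.29 to 0.51 with MYC and TNFAIP3 called.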

How the data were processed

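The deposited table holds log2 signals of 54675 probe sets on 6 Affymetrix arrays. Per the submitters' processing notes the authors ran RMA (affy; version not given in the sources used here). Genes were named from the platform annotation, single symbols only. The 62 control probe sets were left out and used to rescale arrays as an alternative.

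CA was compared with DMSO with lmFit and eBayes of limma 3.58.1 in R 4.3.3, 2-sided, no block, all 6 arrays, with Benjamini-Hochberg adjustment over the 27307 probe sets whose mean was at least 3.49. "Called" means an adjusted p under 0.05. In pathway lists a gene was represented by its brightest tested probe set. The fit was tested on simulated data. Standard errors of log2 changes had a median of 0.07, and the number of arrays limits the precision. The labels do not say whether the wells were separate cultures, so p-values measure the spread between these samples, which may be technical.

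Members and lists were chosen with earlier results of these data known. Named were all member probe sets; from each list the called genes or, with none, the 2 of smallest p; and the 5 genes whose signal correlated best with ZFP36, BTG1 and CPEB4, of which 1 is not reported here. Alternatives were the variance model, the filter, 4 normalizations, array weights, shared probe sets, the replicate block and each array left out.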

Additional observations from a re-analysis of the deposited data

How the results depend on the processing

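As deposited, 26 probe sets were called over the table, 1 of them a member's, and 2 genes of the pathway lists. With a signal-dependent variance these counts were 285, 6 and 4, and after centring on the 3' control RNAs 3594, 5 and 11. On that 3' scale, where the median change of all probe sets was 0.20, 3579 of the calls were higher with CA and 15 lower. All 5 member calls there were higher. With no filter they were 5, 0 and 0 by limma, at 3740, 12 and 11 with an unadjusted p under 0.05, and without shared probe sets 1, 0 and 0, at 1370, 7 and 11. With the filter at the 75th percentile, 162 probe sets were called and 0 of the members, since CPEB4 224828_at falls below that filter; 7 member probe sets had an unadjusted p under 0.05. Leaving out each array in turn gave 2 to 5 probe sets, 0 to 0 member probe sets (9 at an unadjusted p under 0.05 each time) and 0 to 0 pathway genes (9 to 16). The lowest table counts, 2, were without DMSO array 1, 2 or 3. Without CA array 1, 2 or 3 they were 5, 3 and 5. All calls of these 6 fits, and those with no filter or without shared probe sets, were lower with CA, against 14 higher and 12 lower as deposited. In the fits without an array a group of 2 arrays remains.

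With the replicate number as a block limma called 0 probe sets, 0 of the members and 0 pathway genes, at 2485, 9 and 18 with an unadjusted p under 0.05. The deviations of same-numbered arrays from their group means correlated at -0.07, 0.01 and 0.06, and those of differently numbered arrays at -0.11 to 0.09. With 3 arrays per group these values cannot decide whether the numbers pair the samples. Array weights, a further quantile normalization, and centring on array medians or on the 5' controls left 1 member probe set called, CPEB4 224828_at, at changes of 0.58 to 0.63.

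Of the 17 tested member probe sets, 10 kept their sign in every setting that included them, namely those of ZFP36, ZFP36L1, BTG1, TOB1 and CPEB4 and CPEB2 226939_at. The other 7 had fitted changes within 0.1 of 0 as deposited, and the cause of their sign changes was not tested.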

Other observations

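The genes whose signal followed each of 3 members most closely over the 6 arrays were found by Pearson correlation among 12801 measured genes, as a description that mixes the group difference with array-to-array spread. The 5 genes that followed CPEB4 224828_at most closely included LRATD1 (r = 0.999), GADD45A, a growth arrest and DNA damage protein (0.995), CLP1, an RNA kinase of the 3' end cleavage machinery (0.993), and MEF2C, a transcription factor (0.993). LRATD1 averaged 6.76 with CA and 6.09 with DMSO, and rose by 0.67 (limma adjusted p = 0.0235). That call was lost with any 1 array left out (0.0916 to 0.204), with no signal filter (0.101) and with the replicate block (0.348). GADD45A, CLP1 and MEF2C had changes of 0.32, 0.21 and 0.32 and did not pass.

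BTG1 200920_s_at was followed by CDKN2A (0.998), HHEX, a blood lineage homeobox factor (0.995), MOCS3 (0.994), AGO1, an Argonaute protein of microRNA silencing (0.987), and FDXACB1 (0.985). Their changes were 0.07 to 0.25 and none was called. CDKN2A was dim, with means of 4.26 with CA and 4.05 with DMSO against a signal filter of 3.49. Its probe set carries the suffix of those shared between transcripts. Whether that signal comes from CDKN2A RNA was not tested. ZFP36 was followed by ZBTB34 (0.997), ZNF189 (0.996), ZCCHC24 (0.993), SEPHS1 (0.992) and NIPAL3 (0.990), with changes of -0.21 to -0.05 and none called. Over all 12801 genes, r was at least 0.9 for 198 with CPEB4, 162 with BTG1 and 160 with ZFP36.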
